A study of Danio rerio with 12 samples.

Results

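The hearts compared were those of adult zebrafish homozygous for a yap mutation and of wild-type zebrafish, all taken 7 days after cryoinjury, in which a frozen probe kills part of the ventricle wall. The 6 libraries with these labels were used, of 12 in the series: 3 labelled yap -/- (yap mutant) and 3 labelled yap +/+ (wild type). The other 6 come from sham-operated fish of the same genotypes. All fish were 6 to 12 months old. The allele behind the yap -/- label is not given in the sources used here, and the labels do not say whether a library holds 1 heart or a pool, so the p-values below measure the spread between these libraries, which may be technical. RNA was taken from the whole heart, and a lower level of a gene can mean fewer cells of a type or less RNA per cell, which cannot be told apart. Values are FPKM, fragments scaled to transcript length and to the number of mapped fragments, and for each gene they are given for libraries 1, 2 and 3 of a group in that order.

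Yap is a transcriptional co-activator that binds Tead factors in the nucleus and that the kinases of the Hippo pathway, Mst and Lats, keep in the cytoplasm. It is known for promoting cell proliferation and organ growth, and together with its paralogue Taz (wwtr1 in zebrafish) it responds to stiffness and tension of the surrounding matrix. Zebrafish hearts clear a cryoinjury by inflammation, transient scarring, activation of the epicardium that covers the heart, and division of cardiomyocytes at the wound border. The comparison asks how the injured-heart transcriptome of yap mutants differs from that of wild types during that phase.

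No gene passed the test. Of 24782 genes, 14216 had a mean of 1 FPKM or more over the 6 libraries, and 0 of them had a Benjamini-Hochberg adjusted p below 0.05 with limma in either direction. The smallest adjusted p in that limma fit was 0.329. At an unadjusted p below 0.05, 273 genes were higher in mutants (1.92% of those tested) and 925 were lower (6.51%). The 3 mutant values lay entirely above the 3 wild-type values for 438 genes (3.08%) and entirely below them for 1783 genes (12.5%). With the added condition that the group means differ by at least 1 on the log2 scale, 58 genes were higher (0.408%) and 79 lower (0.556%). The gene-wise difference, mutant minus wild type of log2(FPKM + 1), had a median of -0.11 over all genes tested, with 35.1% of genes above 0 and 64.9% below. That lean depends on the scaling: with median-of-ratios scaling the median was 0.01, and with TPM scaling it was -0.19. Among genes with an unadjusted p below 0.05, the lower ones made up 77.2% on the deposited scale, 85.7% with TPM scaling, 41.5% with median-of-ratios scaling and 50.3% after quantile normalization. Single genes below are described by their values and by whether the groups overlap, and gene lists by counts and medians to be read against the median of -0.11. Overlap was judged on the deposited scale only, so it carries the same lean and was not checked with other scalings. Some gaps are narrow, as for tbx5a, at 12.84 FPKM in mutant 2 and 12.85 FPKM in wild type 3.

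**Figure D1:**
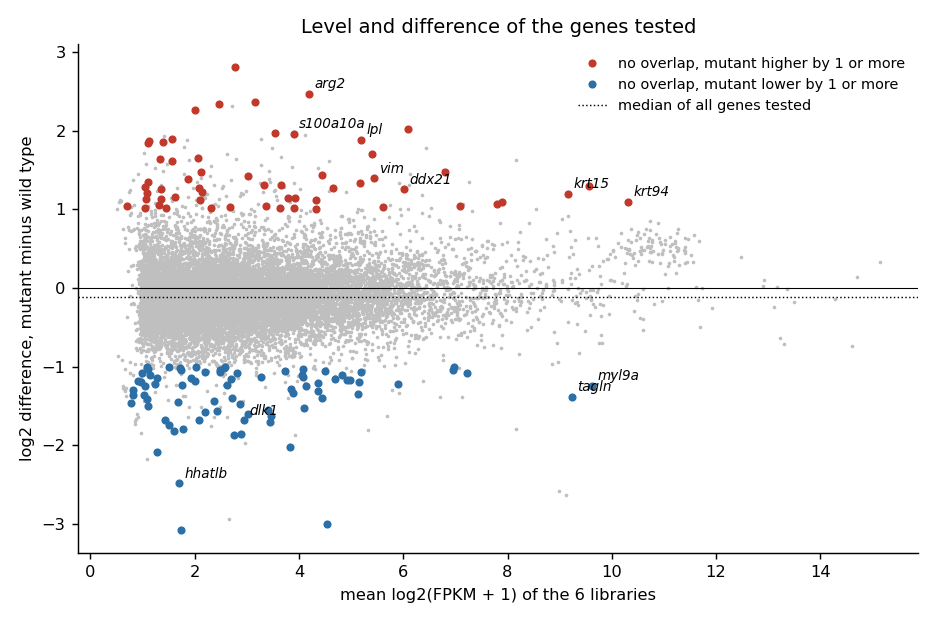
Mean log2(FPKM + 1) of the 6 libraries (x axis) and log2 difference, mutant minus wild type (y axis), for the 14216 genes tested. Coloured points are the 58 and 79 genes with no overlap and means at least 1 apart; the dotted line is the median of all genes, -0.11, and the grey cluster above 0 near the right holds many ribosomal protein genes.

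The mutant libraries were less alike than the wild-type libraries. The correlation of log2 values averaged 0.932 within mutants, 0.961 within wild types and 0.942 between the groups. The standard deviation of a gene over 3 libraries had a median of 0.319 in mutants and 0.191 in wild types, and was larger in mutants for 71.1% of genes. Mutant 3 lay closest to the wild types: its median absolute distance from the wild-type mean was 0.226 on the log2 scale, against 0.327 for mutant 1 and 0.351 for mutant 2. Cytosolic ribosomal protein genes took 21.5%, 33.6% and 19.4% of the summed FPKM in mutants 1, 2 and 3, against 20.3%, 15.6% and 17.4% in wild types, and globin genes took 12.0% to 16.3% in mutants, against 7.82% to 21.9% in wild types. The summed markers of cardiomyocytes, of endocardium and endothelium, of epicardium and of fibroblasts were each at 112 FPKM or more in every library. The part of these differences between libraries in the results below was not tested.

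The label was checked with yap1 itself. Its transcript was at 13.66, 11.77 and 13.05 FPKM in mutants, against 28.54, 29.79 and 22.07 FPKM in wild types. All mutants were below all wild types, at 12.8 ± 0.96 FPKM against 26.8 ± 4.14 FPKM (SD, n = 3 each), a 2.09-fold lower mean. The log2 difference was -0.999 ± 0.18 (SE), with an adjusted limma p of 0.588, and the exact two-sided permutation test of 3 against 3 libraries gave p = 0.1, the smallest that its 20 arrangements allow. The paralogue wwtr1, which encodes Taz, overlapped between the groups, at 11.23, 16.7 and 16.2 FPKM in mutants and 16.17, 18.84 and 16.14 FPKM in wild types (exact permutation p = 0.6). Its log2 difference was -0.22 ± 0.20.

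Upstream in the pathway, 22 of 29 Hippo components in the file passed the filter, and 0 of them passed the adjusted test. Besides yap1, nf2a and vgll4a lay below wild type without overlap, and taok3a was the single component above it. These are 13.6% of the components on the lower side, against 12.5% of all genes, and 4.55% on the higher side, against 3.08%. taok3a, a kinase of the Tao family that acts upstream of Mst, was at 13.29, 11.03 and 9.34 FPKM in mutants, against 6.02, 6.8 and 5.99 FPKM in wild types. nf2a, one of the pair of zebrafish genes for merlin, which activates the Lats kinases, was at 2.44, 1.69 and 2.01 FPKM in mutants and 2.48, 3.1 and 2.97 FPKM in wild types. The other components, among them lats1, lats2, sav1, stk3 and the Tead gene tead3a, overlapped.

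Established Yap and Taz target genes were not lower as a group. Of 31 listed genes in the file 25 were tested, 14 with a positive and 11 with a negative difference and 0 past the adjusted test, with a median of 0.07 (0.21 with median-of-ratios scaling). That sign is not stable: the median was -0.14 without mutant 1, -0.03 without mutant 3 and -0.19 without wild type 2, and it was below 0 with TPM scaling too. ctgfa, a matricellular gene and one of the most used Yap readouts, was at 57.24, 32.08 and 77.31 FPKM in mutants and at 70.39, 28.46 and 61.57 FPKM in wild types. The groups covered the same range. cyr61, a second such gene, was at 20.77, 18.47 and 13.16 FPKM in mutants and 13.15, 14.13 and 15.45 FPKM in wild types. Without overlap, 2 targets were higher in mutants (8%, against 3.08% of all genes) and 0 were lower (0%, against 12.5% of all genes). One of the 2, f3b, a coagulation factor III gene, was at 49.32, 36.53 and 51.44 FPKM in mutants, against 27.44, 28.94 and 32.25 FPKM in wild types. The other, the kinase gene nuak2, was at 4.55, 3.41 and 2.98 FPKM in mutants, against 2.3, 1.91 and 2.27 FPKM in wild types. tgfb2, a ligand of the Tgf-beta family, was at 16.93, 8.88 and 30.94 FPKM in mutants and 28.26, 36.99 and 30.62 FPKM in wild types, where mutant 3 reached into the wild-type range. amotl2a, which encodes an angiomotin-like regulator of Yap that is itself a target, was at 55.98, 25.92 and 9.62 FPKM in mutants and 14.44, 17.52 and 18.23 FPKM in wild types. The mutants spread to both sides of the wild types.

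Among genes with a symbol, a mean of at least 5 FPKM in the higher group and no overlap, the 10 with the lowest p in each direction give the clearest single-gene differences. On the higher side, arg2, mitochondrial arginase, was at 61.99, 37.63 and 31.51 FPKM in mutants, against 12.47, 5.43 and 4.42 FPKM in wild types, a 5.88-fold higher mean (limma, unadjusted p = 0.00037, adjusted p = 0.588). acana, which encodes the cartilage proteoglycan aggrecan, was at 5.46, 5.94 and 5.84 FPKM in mutants, against 2.06, 1.67 and 1.99 FPKM in wild types; the libraries of each group were within 0.5 FPKM of each other, and the limma unadjusted p of 8.2e-05 (adjusted p = 0.355) was the lowest of the 20 genes. cebpb, a transcription factor of acute-phase and myeloid genes, was at 36.97, 33.72 and 33.26 FPKM in mutants, against 15.19, 7.41 and 15.87 FPKM in wild types. The others were the intermediate filament gene vim, s100a10a, which encodes the partner of annexin A2, the polyamine-acetylating enzyme gene sat1a.2, the fucose mutarotase gene fuom, and mdm1, fam60a and pdcd2l. Their mean levels were between 1.84 and 4.04 times those of wild type.

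On the lower side, hhatlb, a gene of the hedgehog acyltransferase-like family, was at 0.17, 0.06 and 1.1 FPKM in mutants, against 6.35, 4.76 and 9.72 FPKM in wild types. Its log2 difference of -2.48 ± 0.34 was the largest decrease among the 20 genes. dlk1, a membrane protein with EGF-like repeats related to Notch ligands, was at 1.88, 4.09 and 4.34 FPKM in mutants, against 14.19, 8.78 and 16.36 FPKM in wild types. apmap, a plasma membrane protein first described in adipocytes, was at 7.85, 14.53 and 16.36 FPKM in mutants, against 29.08, 36.88 and 37.04 FPKM in wild types. fscn1a, which encodes the actin-bundling protein fascin, was at 7.13, 5.23 and 6.38 FPKM in mutants, against 12.93, 11.3 and 11.69 FPKM in wild types. peo1, the mitochondrial DNA helicase gene, was at 1.7, 2.38 and 2.91 FPKM in mutants, against 5.43, 5.65 and 4.78 FPKM in wild types. asb15b, an ankyrin-repeat gene of a family that targets proteins for ubiquitination, ssuh2.2, rrbp1b, a ribosome-binding protein of the endoplasmic reticulum, and baiap2a, which links membranes to actin, completed the 10 with yap1.

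**Figure D2:**
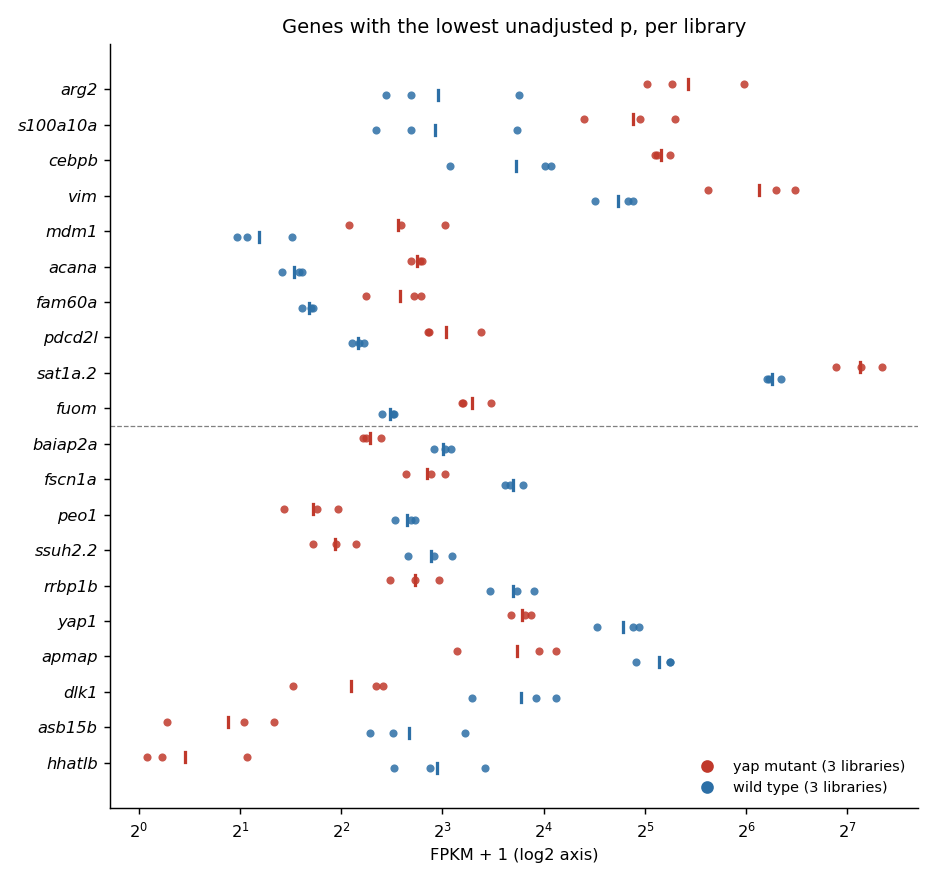
FPKM + 1 on a log2 axis for the 10 genes higher in mutants (above the dashed line) and the 10 lower in mutants (below it) with the lowest unadjusted p. Each dot is 1 library, with mutants drawn above wild types, and the bar is the mean of the log2 values; no gene has overlapping groups.

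Genes of the cell cycle were lower in mutants almost without exception, but as a graded difference that 1 mutant library barely shared. Of 54 listed genes in the file 52 were tested, and 51 had a negative difference, with a median of -0.56 (-0.46 with median-of-ratios scaling). None passed the adjusted test, 15 had an unadjusted limma p below 0.05 (28.8%, against 6.51% of all genes lower by that criterion), and 8 did not overlap (15.4%, against 12.5% of all genes). The median of the list relative to the wild-type mean was -0.84, -0.83 and -0.15 in mutants 1, 2 and 3, against 0.15, -0.47 and 0.33 in wild types. Mutants 1 and 2 were therefore below every wild type, while mutant 3 was above wild type 2. Without single libraries the median ran between -0.81 and -0.46, and 44 to 52 genes had a negative difference.

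All 6 Mcm helicase subunits, which open DNA at replication origins, had negative differences, and together they summed to 21.7 to 31.0 FPKM in mutants, against 30.7 to 63.5 FPKM in wild types. mcm6 was at 3.61, 2.01 and 4.42 FPKM in mutants, against 8.16, 4.67 and 10.56 FPKM in wild types. The replication factor pcna overlapped, at 24.66, 39.17 and 45.26 FPKM in mutants and 57.1, 30.13 and 67.71 FPKM in wild types. ccnd2a, cyclin D2, which drives entry into the cycle, was at 12.52, 13.91 and 17.97 FPKM in mutants, against 23.61, 27.42 and 20.89 FPKM in wild types, and is the listed cyclin whose groups did not overlap at a mean above 5 FPKM. Of the mitotic genes, anln and cdk1 had negative differences and overlapped through mutant 3. anln, which encodes the cytokinesis protein anillin, was at 2.45, 2.41 and 6.84 FPKM in mutants and 10.49, 4.78 and 13.85 FPKM in wild types. cdk1, the mitotic kinase, was at 7.45, 6.11 and 26.2 FPKM in mutants and 21.93, 11.12 and 27.34 FPKM in wild types. The kinesin family, motor proteins of which several act in the spindle, had 18 of 18 tested members with a negative difference, 4 of them without overlap, and summed to 63.9 to 108 FPKM in mutants, against 115 to 129 FPKM in wild types. The cyclins of types A, B, D and E, the only types collected, had 9 of 9 tested members negative, 2 without overlap. They summed to 25.3 to 41.5 FPKM in mutants, against 51.3 to 55.3 FPKM in wild types. The sums of both families did not overlap. The Mcm, kinesin and cyclin families were collected after their values were seen, as were other families that leaned less and are given at the end of the processing section. Of all genes tested, 64.9% had a negative difference and 12.5% lay below wild type without overlap.

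Inhibitors of the cycle were not higher as a group. Of 32 tested genes of cell cycle arrest and the damage response, 13 had a positive and 19 a negative difference (median -0.15, and -0.06 without mutant 1 or mutant 2, -0.22 without wild type 2 and -0.03 without wild type 3), with 0 past the adjusted test. Without overlap, 4 were lower (12.5%, the same share as of all genes). One of these, cdkn1a, an inhibitor of cyclin-dependent kinases, was at 8.06, 6.27 and 9.83 FPKM in mutants, against 18.99, 14.42 and 12.98 FPKM in wild types.

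Several genes of the epicardium and several keratins were higher in mutants without overlap, while the epicardial list as a whole was above wild type in mutants 1 and 2 only. In the epicardial list 24 genes were in the file and 21 were tested: 16 had a positive and 5 a negative difference, with a median of 0.19 (0.34 with median-of-ratios scaling), 0 past the adjusted test and 4 without overlap, all higher (19% of those tested, against 3.08% of all genes). wt1b, a transcription factor gene of the activated epicardium, was at 34.03, 22.11 and 20.47 FPKM in mutants, against 14.59, 12.73 and 14.45 FPKM in wild types (1.83-fold, limma unadjusted p = 0.00894). krt94 was at 1973, 2435 and 1348 FPKM in mutants, against 836, 854 and 930 FPKM in wild types. krt8, a keratin of simple epithelia, was at 2481, 1623 and 1256 FPKM in mutants, against 1219, 934 and 930 FPKM in wild types. s100a10a, also on this list, was at 20.02, 38.3 and 29.97 FPKM in mutants, against 5.46, 4.06 and 12.36 FPKM in wild types. Other epicardial genes overlapped: tcf21 was at 40.88, 65.43 and 32.06 FPKM in mutants and 32.75, 57.86 and 30.42 FPKM in wild types, and tbx18 at 19.6, 15.15 and 6.5 FPKM in mutants and 9.53, 19.03 and 13.45 FPKM in wild types. aldh1a2, which makes retinoic acid in the injured heart, was at 176.37, 139.39 and 93.91 FPKM in mutants and 165.7, 139.49 and 91.48 FPKM in wild types. The list median was 0.58 in mutant 1, 0.22 in mutant 2 and -0.14 in mutant 3, against -0.09 to 0.02 in wild types, so mutant 3 was the lowest of the 6 libraries, and the difference was 0.11 without mutant 1, 0.40 without mutant 3 and 0.02 without wild type 3.

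The keratin family, collected after its values were seen, had 18 genes in the file and 10 tested. Of these, 8 had a positive difference, 4 of them without overlap, where 35.1% and 3.08% of all genes did. These 4 include krt94 and krt8 of the epicardial list, so the keratin counts and sums are not separate from the epicardial values above. krt15 was at 889, 1000 and 735 FPKM in mutants, against 277, 413 and 472 FPKM in wild types. krt93 was at 81.98, 65.3 and 33.59 FPKM in mutants, against 20.24, 19.1 and 26.57 FPKM in wild types. The 2 with a negative difference, krt5 and krt97, were high in a single library, with 74.08 and 13.34 FPKM in wild type 3. In sum the family was at 3950 to 6404 FPKM in mutants, against 2663 to 3041 FPKM in wild types. vim, an intermediate filament gene of mesenchymal cells, was at 77.24, 88.31 and 48.21 FPKM in mutants, against 21.66, 27.47 and 28.49 FPKM in wild types (2.75-fold). Skin and gill are tissues in which many keratins are also expressed. Their 5 fixed marker genes, which include the keratin genes krt4, krt5 and cyt1, had overlapping sums. These were 842 to 1706 FPKM in mutants and 910 to 1369 FPKM in wild types. The longer skin and gill list summed to 2872, 2584 and 2308 FPKM in mutants, against 1784, 1462 and 2083 FPKM in wild types, without overlap. These sums include krt15, which itself did not overlap, so they are not separate from the keratin values above. Of the 16 tested genes of that list, 8 had a positive and 8 a negative difference. The part of skin and gill in the keratin values was not tested.

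Genes of smooth muscle went both ways, with several abundant contractile genes lower in mutants. The list of smooth muscle and outflow tract genes had 26 members in the file and 22 tested, 9 with a positive and 13 with a negative difference and 0 past the adjusted test. Its median of -0.12 is that of all genes, and it was 0.01 with median-of-ratios scaling and above 0 without mutant 2 or without wild type 1. The members differed in direction: 6 lay below wild type without overlap (27.3%, against 12.5% of all genes) and 3 above (13.6%, against 3.08%). tagln, which encodes the actin-binding protein transgelin, was at 378, 230 and 597 FPKM in mutants, against 1435, 745 and 867 FPKM in wild types (2.53-fold lower mean, limma unadjusted p = 0.0109). The regulatory light chain gene myl9a was at 547, 336 and 717 FPKM in mutants, against 1555, 967 and 1170 FPKM in wild types. Its duplicate myl9b was at 219.6, 168.5 and 294.9 FPKM in mutants, against 448.3, 388.1 and 365.6 FPKM in wild types. smtnb, smoothelin, was at 3.46, 3.25 and 10.39 FPKM in mutants, against 17.76, 23.61 and 15.2 FPKM in wild types. cnn1b, calponin, and myl6, an essential light chain, were lower without overlap as well. In the opposite direction were the tropomyosin gene tpm1, the myosin light chain kinase gene mylka and the integrin gene itga8. The smooth muscle myosin gene myh11a overlapped, at 18.28, 6.93 and 7.73 FPKM in mutants and 8.08, 5.43 and 7.61 FPKM in wild types. So did acta2, smooth muscle actin, at 284.7, 148.5 and 209.4 FPKM in mutants and 373.0, 205.6 and 233.4 FPKM in wild types. The 6 fixed smooth muscle markers, of which tagln is the most abundant, summed to 405 to 872 FPKM in mutants, against 1014 to 1896 FPKM in wild types. The amount of outflow tract kept with each heart is not given in the labels, and its part in these values was not tested.

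**Figure D3:**
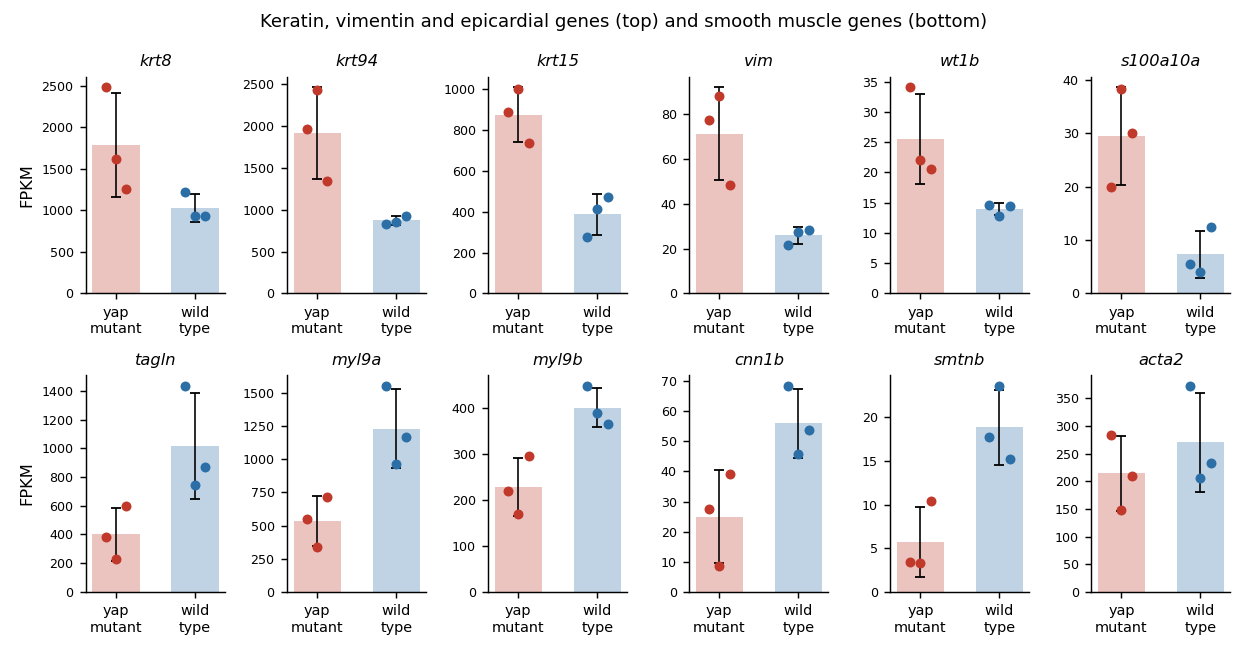
FPKM of 6 keratin, vimentin and epicardial genes (top row) and 6 smooth muscle genes (bottom row); bars are means, error bars SD (n = 3 each), dots single libraries, with mutants left of wild types in each panel. All 6 genes of the top row and the first 5 of the bottom row have no overlap, while acta2 overlaps.

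Scar matrix genes differed little. Of 36 tested genes of fibrillar collagen and scar matrix, 13 had a positive and 23 a negative difference (median -0.15, -0.03 with median-of-ratios scaling, -0.32 without mutant 1, -0.003 without wild type 1 and -0.36 without wild type 2). Of the 36, 0 had an unadjusted limma p below 0.05, and 2 were lower without overlap (5.56%, against 12.5% of all genes). These were col6a2, a collagen VI chain gene, at 35.05, 19.8 and 27.58 FPKM in mutants, against 37.79, 35.38 and 38.75 FPKM in wild types, and thbs2b, a thrombospondin gene, which was below 3 FPKM in every library. Over the collagen family, collected after its values were seen, 22 of 25 tested genes had a negative difference, 3 of them without overlap, where 64.9% and 12.5% of all genes did. Fibroblast markers summed to 743 to 877 FPKM in mutants, against 774 to 1175 FPKM in wild types. Of 17 tested metalloproteinases and inhibitors, 8 had a positive and 9 a negative difference. Their median of -0.01 had the other sign in 5 settings. The 2 without overlap, mmp23b and mmp2, were lower in mutants (11.8%, against 12.5% of all genes). mmp23b, a membrane-anchored metalloproteinase gene, was at 58.68, 98.28 and 116.41 FPKM in mutants, against 171.56, 197.91 and 164.02 FPKM in wild types. mmp2, gelatinase A, was at 98.89, 99.33 and 108.1 FPKM in mutants, against 139.92, 140.82 and 109.65 FPKM in wild types, where mutant 3 and wild type 3 were adjacent.

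Macrophage and other leukocyte genes had mostly positive differences that came from mutants 1 and 2. Of 34 macrophage genes in the file 31 were tested, and 27 had a positive difference (87.1%, against 35.1% of all genes). The median was 0.32 (0.46 with median-of-ratios scaling), with 0 past the adjusted test. Without overlap, 3 were higher (9.68%, against 3.08% of all genes). The list median was 0.45, 0.67 and -0.19 in mutants 1, 2 and 3, against 0.23, -0.26 and 0.03 in wild types. Mutant 3 lay inside the wild-type range. Without mutant 3 the median was 0.53 with 29 of 31 positive, and without mutant 2 it was 0.14 with 21 of 31 positive; without wild type 2 it was 0.20. marco, a scavenger receptor gene of macrophages, was at 192.61, 156.23 and 49.82 FPKM in mutants and 55.3, 30.62 and 41.85 FPKM in wild types. mpeg1.1, the perforin-like gene most used to mark macrophages in zebrafish, was at 15.23, 26.37 and 10.83 FPKM in mutants and 14.25, 10.71 and 14.09 FPKM in wild types. apoc1l, an apolipoprotein gene, was one of the 3 without overlap, at 8.85, 7.91 and 3.56 FPKM in mutants, against 2.89, 1.09 and 0.61 FPKM in wild types. csf1ra, the receptor of the macrophage growth factor Csf1, was at 4.56, 3.24 and 2.09 FPKM in mutants and 3.71, 2.72 and 5.25 FPKM in wild types. Pan-leukocyte genes had 15 of 20 positive with a median of 0.31 and 0 without overlap. That median was 0.10 without mutant 2, 0.56 without mutant 3 and 0.09 without wild type 2.

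Neutrophil granule genes were highest in mutant 2. lyz, lysozyme, was at 1.72, 113.62 and 27.7 FPKM in mutants and 1.8, 5.45 and 11.13 FPKM in wild types, and npsn, a granule protease, at 3.28, 50.77 and 5.07 FPKM in mutants and 0.94, 1.89 and 5.93 FPKM in wild types. The 5 fixed neutrophil markers summed to 11.2 to 189 FPKM in mutants, against 18.3 to 35.3 FPKM in wild types. Of 18 tested genes of the neutrophil list, 4 were higher without overlap (22.2%, against 3.08% of all genes). Of these 4, cebpb and cebpa are transcription factors that other cells also express. cebpa was at 16.92, 18.52 and 13.89 FPKM in mutants, against 10.57, 11.69 and 10.05 FPKM in wild types. Lymphocyte markers were low in every library, with a sum of 1.81 to 3.97 FPKM in mutants and 1.96 to 3.17 FPKM in wild types and with rag1 under 0.2 FPKM throughout.

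Of 31 tested inflammatory mediators, 21 had a positive difference (67.7%, against 35.1% of all genes; median 0.33) and 0 passed the adjusted test. By library the median was 0.68, 0.10 and -0.11 in mutants 1, 2 and 3, against -0.19 to 0.13 in wild types, so mutant 1 alone lay above the wild types, and without it the median was 0.12. Both cyclooxygenase-2 genes, whose enzymes start prostaglandin synthesis, were higher without overlap: ptgs2a at 6.02, 2.04 and 1.79 FPKM in mutants, against 1.08, 1.22 and 0.57 FPKM in wild types, and ptgs2b at 5.42, 8.47 and 6.75 FPKM in mutants, against 3.83, 4.85 and 4.1 FPKM in wild types. cxcl8a, a neutrophil-attracting chemokine gene, was high in mutant 1 alone, at 19.08, 3.1 and 0.32 FPKM in mutants and 0.75, 0.61 and 0.46 FPKM in wild types. Complement had 8 of 11 tested genes positive (72.7%, against 35.1% of all genes) and 2 higher without overlap (18.2%, against 3.08% of all genes). The list shares c1qa, c1qb and c1qc with the macrophage list, so the 2 lists are not separate. cfd, the factor D protease of the alternative pathway, was at 193.97, 229.32 and 123.92 FPKM in mutants, against 102.7, 113.17 and 89.12 FPKM in wild types. c6, of the membrane attack complex, was at 217.19, 314.63 and 225.02 FPKM in mutants, against 214.53, 153.86 and 166.87 FPKM in wild types. Without mutant 2 the complement median was below 0.

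Of 30 tested interferon response genes, 21 had a negative difference (70%, against 64.9% of all genes; median -0.25, -0.14 with median-of-ratios scaling), 0 passed the adjusted test and 6 lay below wild type without overlap (20%, against 12.5% of all genes). stat1a, which transmits interferon signals, was at 21.9, 16.91 and 17.32 FPKM in mutants, against 24.31, 30.11 and 25.94 FPKM in wild types. The antiviral GTPase genes mxa and mxe were lower without overlap, mxa at 4.61, 3.67 and 2.59 FPKM in mutants, against 5.14, 9.38 and 8.36 FPKM in wild types. isg15, a ubiquitin-like modifier, overlapped, at 12.96, 9.95 and 3.37 FPKM in mutants and 7.82, 21.92 and 39.08 FPKM in wild types. The list median was 0.24 in mutant 1, -0.39 in mutant 2 and -0.53 in mutant 3, against -0.15 to 0.19 in wild types, so that mutant 1 was the highest of the 6 libraries and mutants 2 and 3 the lowest. Its difference was -0.46 without mutant 1, -0.14 without mutant 2 or mutant 3 and -0.13 without wild type 3. Antigen presentation had 17 of 25 negative differences (68%, against 64.9% of all genes) and 3 genes lower without overlap (12%, against 12.5%). Its median of -0.25 was -0.03 without mutant 1, in which 5 genes of the major histocompatibility region were listed under 0.2 FPKM, and -0.40 without wild type 2. One of the 3 was erap1a, which trims peptides for class I molecules, at 3.4, 4.69 and 5.28 FPKM in mutants, against 7.31, 7.57 and 7.86 FPKM in wild types.

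**Figure D4:**
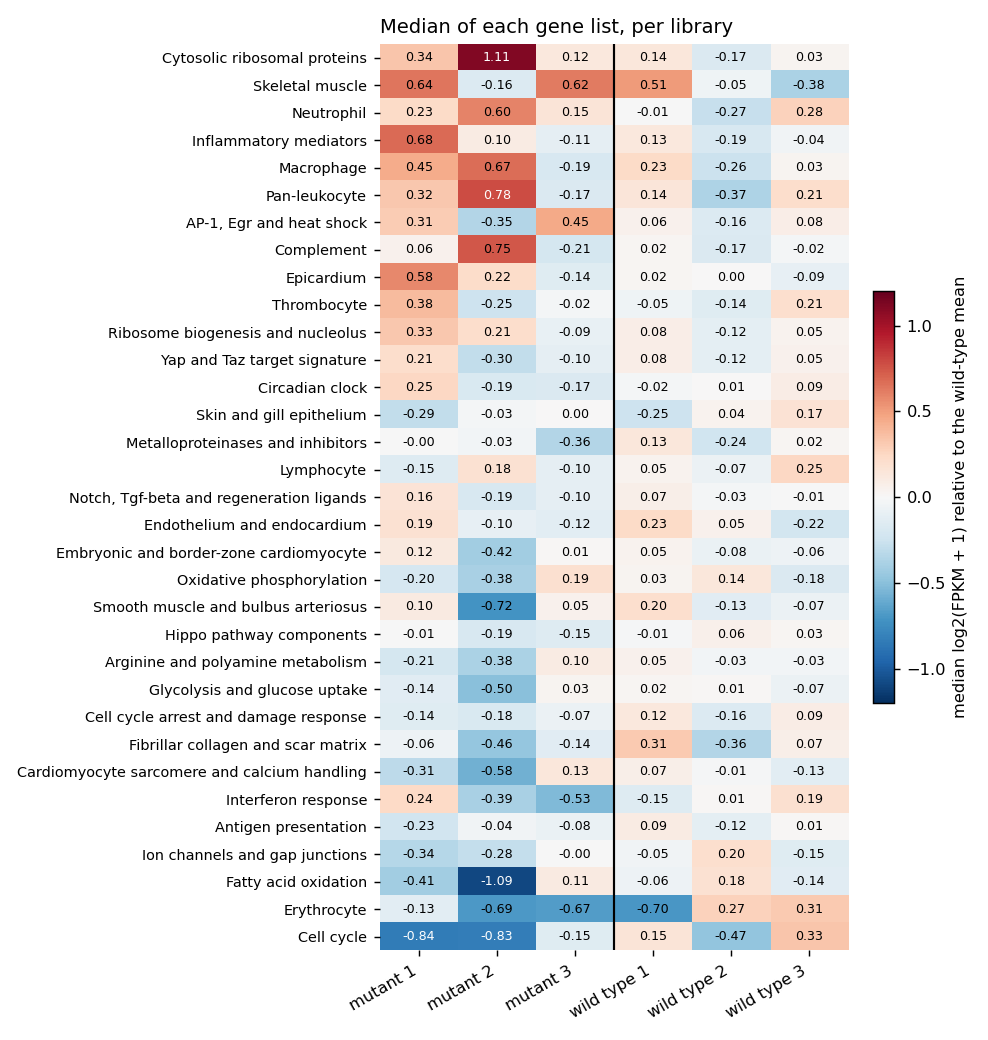
Median over the tested genes of each list of log2(FPKM + 1) relative to the gene's wild-type mean, per library (mutants left, wild types right), for the 33 lists with at least 10 tested genes, ordered by the median difference between groups. Ribosomal proteins at 1.11 and fatty acid oxidation at -1.09 in mutant 2 are the extremes, and mutant 3 is mostly near 0.

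Fatty acid oxidation, the main source of energy of the resting heart, was lower in mutants 1 and 2. Of 42 listed genes in the file 39 were tested, 33 with a negative difference and a median of -0.38 (-0.26 with median-of-ratios scaling), with 0 past the adjusted test and 7 without overlap on the lower side (17.9%, against 12.5% of all genes). The list median was -0.41, -1.09 and 0.11 in mutants 1, 2 and 3, against -0.14 to 0.18 in wild types. Sarcomere and calcium-handling genes of cardiomyocytes had medians of -0.31, -0.58 and 0.13 in mutants 1, 2 and 3, against -0.13 to 0.07 in wild types, in the same order as fatty acid oxidation; their part in it was not tested. Without mutant 2 the fatty acid oxidation median was -0.12, close to the median of all genes, and without mutant 3 it was -0.64. The entry of fatty acids into mitochondria depends on carnitine palmitoyltransferase 1, and its genes cpt1ab and cpt1b were both lower without overlap. cpt1ab was at 25.47, 30.7 and 39.22 FPKM in mutants, against 51.1, 61.43 and 52.18 FPKM in wild types. cpt1b was at 14.46, 8.68 and 24.39 FPKM in mutants, against 31.75, 29.54 and 33.3 FPKM in wild types. acsl1b, which activates long-chain fatty acids, was at 14.82, 3.68 and 12.85 FPKM in mutants, against 22.33, 40.93 and 24.39 FPKM in wild types, and the carnitine carrier gene slc25a20 was at 13.31, 18.51 and 23.15 FPKM in mutants, against 30.1, 31.43 and 28.04 FPKM in wild types. lpl, the lipase that releases fatty acids from circulating lipoproteins, was the one listed gene higher without overlap, at 43.26, 239.54 and 31.59 FPKM in mutants, against 20.54, 29.07 and 9.71 FPKM in wild types. Of 87 tested subunits of oxidative phosphorylation, 60 had a negative difference (69%, against 64.9% of all genes) with a median of -0.12, and 48 were positive with median-of-ratios scaling. By library the median was -0.20, -0.38 and 0.19 in mutants 1, 2 and 3, against -0.18 to 0.14 in wild types. It was -0.03 without mutant 2 and -0.29 without mutant 3. Without overlap, 5 were higher (5.75%, against 3.08% of all genes) and 1 was lower (1.15%, against 12.5% of all genes). Among the 5, atp5e, an ATP synthase subunit gene, was at 713.7, 737.7 and 684.0 FPKM in mutants, against 551.7, 539.9 and 488.7 FPKM in wild types.

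Glycolysis and glucose uptake had a median of -0.14 over 43 tested genes, which was positive with median-of-ratios scaling, -0.32 without mutant 1, -0.08 without mutant 2 and -0.30 without mutant 3. Without overlap, 1 was higher (2.33%, against 3.08% of all genes) and 6 were lower (14%, against 12.5% of all genes), shares near those of all genes. The higher one was slc2a1b, a glucose transporter gene, at 76.52, 71.53 and 79.51 FPKM in mutants, against 56.29, 59.5 and 51.94 FPKM in wild types. pfkla, the liver-type phosphofructokinase gene, was at 6.21, 2.73 and 4.94 FPKM in mutants, against 9.08, 8.85 and 7.21 FPKM in wild types.

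Cardiomyocyte genes of the sarcomere and calcium handling had 33 of 45 negative differences (73.3%, against 64.9% of all genes; median -0.21, -0.06 with median-of-ratios scaling), 0 past the adjusted test and 5 without overlap on the lower side (of all genes 12.5%). Without mutant 2 the median was -0.05, and without mutant 3 it was -0.37. lmod2a, a leiomodin gene whose protein promotes actin filament assembly, was at 17.1, 23.64 and 19.56 FPKM in mutants, against 30.13, 33.91 and 47.36 FPKM in wild types. myh7bb, a myosin heavy chain gene, was at 70.93, 72.3 and 59.13 FPKM in mutants, against 106.77, 90.36 and 96.0 FPKM in wild types. actc1b, an actin gene, was the listed gene higher without overlap, at 13.99, 12.76 and 37.4 FPKM in mutants, against 12.64, 7.58 and 3.45 FPKM in wild types. tpma, a tropomyosin gene, overlapped, at 14.09, 0.81 and 11.33 FPKM in mutants and 1.97, 0.55 and 0.48 FPKM in wild types. The 9 fixed cardiomyocyte markers summed to 29531 to 49410 FPKM in mutants, against 36902 to 49352 FPKM in wild types. Of the embryonic and border-zone genes, 13 of 30 were positive and 17 negative. meis2b, a homeobox gene, was at 4.28, 5.74 and 2.93 FPKM in mutants, against 0.13, 1.46 and 0.76 FPKM in wild types. mef2ca, a muscle transcription factor gene, was at 11.09, 6.81 and 14.83 FPKM in mutants, against 19.92, 17.35 and 20.13 FPKM in wild types, and tbx5a, a regulator of heart and fin development, was at 10.33, 12.84 and 10.23 FPKM in mutants, against 16.96, 26.17 and 12.85 FPKM in wild types. Ion channel and gap junction genes had 14 of 18 negative differences (77.8%, against 64.9% of all genes). Their median was -0.28, and -0.14 with median-of-ratios scaling or without mutant 1, -0.16 without mutant 2 and -0.19 without wild type 2. The single one without overlap (5.56%, against 12.5% of all genes on the lower side) was the sodium pump subunit gene atp1a1a.1. It was at 219.8, 224.4 and 170.0 FPKM in mutants, against 285.3, 224.7 and 234.8 FPKM in wild types.

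Cytosolic ribosomal proteins were higher in mutants in nearly every gene. All 82 in the file were tested and 81 had a positive difference, with a median of 0.52 (0.67 with median-of-ratios scaling), 0 past the adjusted test and 25 without overlap (30.5%, against 3.08% of all genes). The list median was 0.34, 1.11 and 0.12 in mutants 1, 2 and 3, against 0.14, -0.17 and 0.03 in wild types, so mutant 2 stood far above all others and mutant 3 was level with wild type 1. Without mutant 2 the median was 0.21 and 73 of 82 genes were positive. rpl38, of the large subunit, had the lowest p of the list, at 1581, 1550 and 691 FPKM in mutants, against 594, 500 and 381 FPKM in wild types (limma unadjusted p = 0.00989). Genes of ribosome assembly and the nucleolus, a list added after the values were seen, had 65 of 90 positive (72.2%, against 35.1% of all genes). Their median was 0.13 (0.04 without mutant 1, 0.22 without mutant 3, 0.20 without wild type 1 and 0.03 without wild type 2). On the higher side 9 did not overlap (10%, against 3.08% of all genes). ddx21, a nucleolar RNA helicase gene, was at 73.3, 251.02 and 51.54 FPKM in mutants, against 47.57, 35.09 and 40.34 FPKM in wild types, and gtpbp4, a GTPase of the assembling large subunit, was at 267.8, 646.3 and 194.5 FPKM in mutants, against 156.9, 162.4 and 141.6 FPKM in wild types.

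**Figure D5:**
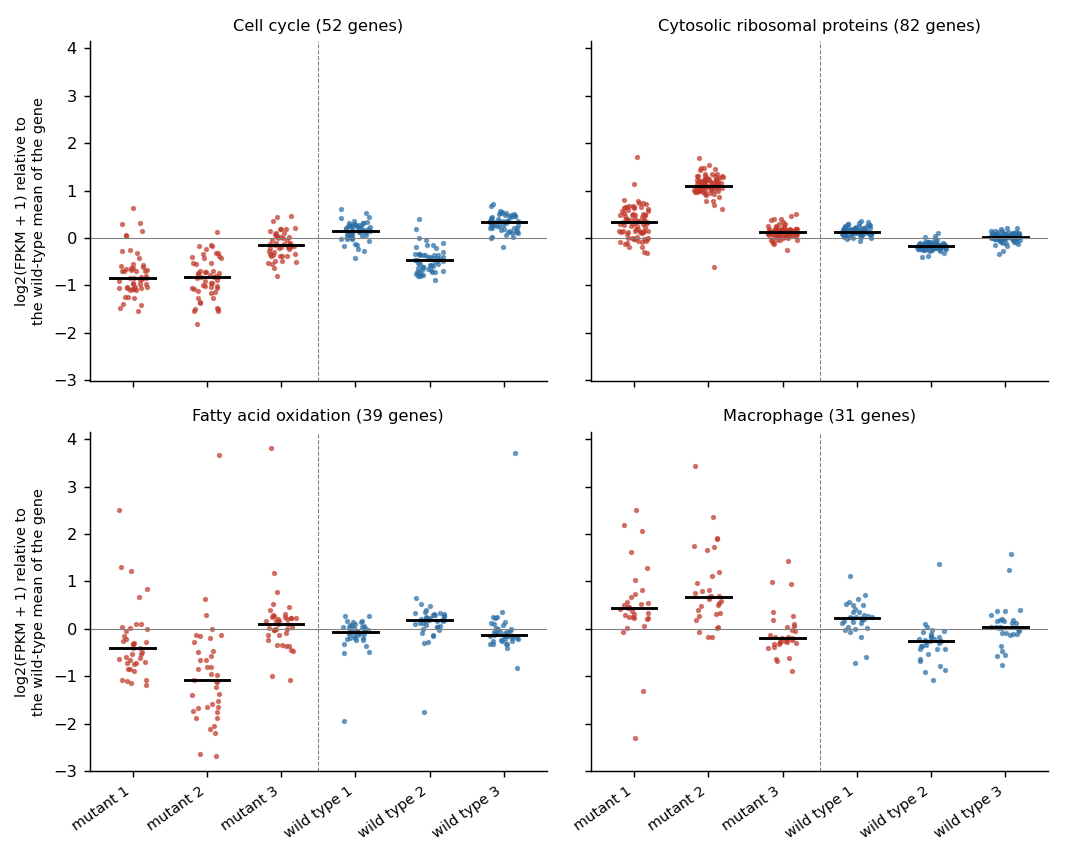
Log2(FPKM + 1) of each tested member of 4 lists relative to its wild-type mean (y axis), by library (x axis, mutants left); dots are genes and black bars medians. Cell cycle medians were -0.84, -0.83 and -0.15 in mutants, and ribosomal protein medians 0.34, 1.11 and 0.12.

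Arginine and polyamine metabolism was looked at after arg2 and sat1a.2 had been seen among the lowest p-values, so its counts describe these values only. Of 24 tested genes 10 had a positive and 14 a negative difference, with a median of -0.14 (-0.07 without mutant 2, -0.25 without mutant 3 and -0.09 without wild type 2). Without overlap, 3 were higher (12.5%, against 3.08% of all genes) and 4 lower (16.7%, against 12.5% of all genes). The 3 higher ones were arg2, which makes ornithine from arginine, and sat1a.1 and sat1a.2, paralogous genes for the acetyltransferase that breaks down polyamines. sat1a.1 was at 19.94, 46.54 and 11.29 FPKM in mutants, against 3.26, 10.09 and 3.37 FPKM in wild types. sat1a.2 was at 160.82, 117.73 and 139.25 FPKM in mutants, against 80.17, 73.76 and 72.69 FPKM in wild types. The paralogues may share reads, so the split between them is uncertain. On the lower side were odc1, the enzyme that starts polyamine synthesis, at 5.33, 7.6 and 8.56 FPKM in mutants, against 11.34, 8.9 and 10.32 FPKM in wild types, and its inhibitor antizyme gene oaz1a, with asl and aldh18a1.

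Early response genes of the AP-1 and Egr families and heat shock genes had 26 of 40 positive differences (65%, against 35.1% of all genes; median 0.24) and 3 higher without overlap (7.5%, against 3.08% of all genes). By library the median was 0.31, -0.35 and 0.45 in mutants 1, 2 and 3, against -0.16 to 0.08 in wild types, with mutant 2 below every wild type. It was 0.14 without mutant 1, 0.39 without mutant 2 and 0.10 without wild type 2. dusp5, a phosphatase that acts on Erk, was at 7.1, 8.96 and 14.68 FPKM in mutants, against 6.56, 5.03 and 4.45 FPKM in wild types, and zfp36l1b, whose protein speeds the decay of mRNAs, was at 95.17, 85.18 and 74.62 FPKM in mutants, against 64.59, 60.38 and 67.41 FPKM in wild types.

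Endothelial and endocardial genes were mixed, with 17 of 38 positive (44.7%, against 35.1% of all genes) and 21 negative. Without overlap, 4 were higher (10.5%, against 3.08% of all genes) and 2 were lower (5.26%, against 12.5% of all genes). kdr, a Vegf receptor gene, was at 3.72, 2.89 and 4.6 FPKM in mutants, against 7.7, 6.63 and 5.0 FPKM in wild types, while lyve1b, a marker of lymphatic endothelium, was at 1.82, 2.13 and 1.55 FPKM in mutants, against 0.23, 0.78 and 0.94 FPKM in wild types. figf, which encodes the lymphatic growth factor Vegfd and was picked after its values were seen, was at 24.66, 11.84 and 11.02 FPKM in mutants, against 2.57, 10.34 and 5.47 FPKM in wild types. Of 57 tested genes of Notch, Tgf-beta and regeneration ligands 24 were positive and 33 negative. Without overlap, 5 were lower (8.77%, against 12.5% of all genes) and 1 was higher (1.75%, against 3.08%). The lower ones include the Notch ligand gene jag2b and fgf17. jag2b was at 4.48, 4.85 and 4.78 FPKM in mutants, against 5.7, 7.28 and 7.15 FPKM in wild types. fgf17 was at 18.89, 23.16 and 19.93 FPKM in mutants, against 32.67, 32.92 and 23.97 FPKM in wild types. The growth factor genes mdkb and igf2b had positive differences and overlapped. mdkb was at 19.08, 11.54 and 6.12 FPKM in mutants and 2.98, 8.09 and 2.84 FPKM in wild types. igf2b was at 44.2, 59.4 and 25.67 FPKM in mutants and 26.84, 18.55 and 22.4 FPKM in wild types. Clock genes had 19 of 33 positive, with 6 lower without overlap (18.2%, against 12.5% of all genes). nr1d1, a repressor of the clock loop, was at 10.24, 5.57 and 3.28 FPKM in mutants, against 2.88, 2.09 and 2.58 FPKM in wild types, while the activator gene arntl1a was at 3.57, 8.06 and 8.59 FPKM in mutants, against 11.89, 12.29 and 9.42 FPKM in wild types. The hour at which hearts were taken is not given in the labels, and its part in the clock values was not tested.

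Erythrocyte genes had 26 of 31 negative differences (median -0.47), but the list median was -0.13, -0.69 and -0.67 in mutants and -0.70, 0.27 and 0.31 in wild types, and without single libraries it ran between -0.78 and -0.27. Skeletal muscle genes had 15 of 21 positive (median 0.49, and 0.29 without mutant 3 and 0.21 without wild type 3) and 0 without overlap. Their medians were 0.64, -0.16 and 0.62 in mutants, against 0.51, -0.05 and -0.38 in wild types.

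A gene was called near on or off when it averaged at least 2 FPKM in one group and stayed under 0.2 FPKM in each library of the other. By that rule 16 genes were near 0 in all mutants and 6 in all wild types. None of the 16 reached 2 FPKM in all 3 wild types, 6 did in 2 of them and 10 in 1. The 6 that were near 0 in wild types each reached 2 FPKM in a single mutant. The 3 with the highest wild-type mean were scpp7, a calcium-binding phosphoprotein gene of mineralizing tissue, paplnb, a papilin gene, and col10a1a, which encodes the collagen X of hypertrophic cartilage and bone; they were at 90.38, 29.94 and 28.11 FPKM in wild type 3 and at most 0.13 FPKM in every other library. The differences of these genes thus rest on 1 wild-type library.

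Genes beside yap1 on its chromosome, by their order in the RefSeq gene table, did not stand out. Of the 50 genes on each side 40 were tested, and 8 did not overlap between the groups (20%, 3 higher and 5 lower in mutants), against 15.6% of all genes tested. An unadjusted limma p below 0.05 was found for 3 of the 40 (7.5%), against 8.42% of all genes tested.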

How the data were processed

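RNA-seq of 12 zebrafish heart samples was available; the 6 cryoinjured ones were analysed. Libraries were poly-A selected for a BGISEQ instrument, per the labels. The values are gene-level FPKM as deposited by the authors. Per the submitters' processing notes, HISAT, Bowtie2 and the GRCz11 build are named, without roles; the labels used here name neither versions nor the counting program, and read depth is unknown. Low FPKM steps put the relative depth of the 6 libraries at 0.767 for mutant 1 and 0.948 to 1.02 for the others. A further 1 value column, which matches no single sample, was not used.

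From the FPKM, log2(FPKM + 1) was tested with limma 3.58.1 (R 4.3.3; trend) over genes with a mean of 1 FPKM or more, with Benjamini-Hochberg adjustment and a threshold of 0.05. Of 1505 list entries 1434 were found by current or deposited symbols. The genes named are yap1 and wwtr1, the 10 lowest-p non-overlapping genes per direction, on-off genes, up to 4 lowest-p members of each list, and, chosen after their values were seen, others that a statement turns on, chiefly well-known members. Members and lists were chosen with earlier results of these data known. 2 lists and the families were added after values were seen. The families shown above are those with the stronger leans. The others had 9 positive and 13 negative differences (integrins), 9 and 14 (tspan genes), 4 and 6 (S100), 1 and 2 (caveolae) and 4 and 1 (Cebp). The script was tested on simulated data. Alternatives covered pseudocount, filter, scaling, samples, variance model, weights, replicate block and leaving out each library.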

Additional observations from a re-analysis of the deposited data

How the results depend on the processing

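None of the 17 alternative settings gave a gene with an adjusted limma p below 0.05; their smallest adjusted p ran between 0.0663 (without wild type 2) and 0.873 (all 12 samples in the fit). At an unadjusted p below 0.05 (273 genes higher and 925 lower), the counts were 442 higher without a filter, 165 higher and 430 lower with a filter at 5 FPKM, 171 higher and 532 lower with all 12 samples, 559 higher and 397 lower with median-of-ratios scaling, 463 higher and 468 lower after quantile normalization, and 192 higher and 1146 lower with TPM scaling. Leaving out 1 library at a time gave between 169 and 648 higher and between 489 and 1671 lower; the highest pair came without mutant 3 and the lowest without wild type 3. The cause was not tested. By construction, the stricter filter left fewer genes to test. A leave-one-out fit has fewer samples, and its counts went both above and below 273 and 925. Signs were checked for the genes named by rule: yap1, wwtr1, the lowest-p and on-off genes and the lowest-p list members. Among these, signs reversed for gsdf (-0.024 without wild type 3, range without single libraries -0.024 to 0.59) and vtg4 (-0.030 without wild type 1, range -0.030 to 0.69). The sign of syt1a reversed too (0.06 without mutant 2 and 0.18 without wild type 2, range -0.41 to 0.18). All 3 are in lists of tissues other than heart with 3 tested genes each. Genes chosen after their values were seen were not part of this check, so their signs may be less stable. The median difference changed sign in at least 1 setting for the lists of Yap targets, metalloproteinases, smooth muscle, lymphocytes, complement, oxidative phosphorylation, glycolysis, embryonic cardiomyocyte, endothelial, Notch and Tgf-beta, clock, thrombocyte, liver, skin, gonad and neural genes.

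With the replicate number as a block, 0 genes had an adjusted limma p below 0.05. At an unadjusted p below 0.05, 288 genes were higher and 717 lower. Deviations of same-numbered libraries from their group means correlated at 0.0931, 0.0167 and -0.0813, and 1 of 3 mutants correlated best with its own number. With 3 libraries per group, these correlations cannot decide whether same-numbered samples were handled together. FPKM carry no read counts, so no counting error can be given, and genes near 1 FPKM are compressed by the pseudocount.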

Other observations

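Some immune genes were absent from single libraries. In mutant 1, 6 genes were under 0.2 FPKM that were at 5 FPKM or more in each of the other 5 libraries, and 5 of these belong to the core major histocompatibility region of zebrafish: the immunoproteasome genes psmb8a, psmb9a, psmb10 and psmb12 and the class I gene mhc1uka. psmb8a was listed at 0 in mutant 1 and at 27.93 and 50.01 FPKM in mutants 2 and 3, against 27.26, 24.75 and 23.96 FPKM in wild types. In the opposite sense, mhc1zka was at 8.59 FPKM in mutant 1 and listed at 0 in the other 5 libraries. The sixth gene, chrnb1, was listed at 0 in mutant 1, at 6.11 and 7.19 FPKM in mutants 2 and 3, and at 13.87, 15.43 and 10.38 FPKM in wild types. No gene met that condition in mutants 2 and 3 or in wild type 2.

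A few genes had a low and a high state inside both groups. hadh, a mitochondrial enzyme of fatty acid oxidation, was at 35.48, 0.73 and 89.64 FPKM in mutants and at 0.66, 0.89 and 82.95 FPKM in wild types. cplx2l was at 3.31, 0.59 and 23.46 FPKM in mutants and at 0.48, 24.85 and 12.02 FPKM in wild types. By the rule of under 1 FPKM in 1 library and at least 10 FPKM in another of the same group, in both groups, 8 genes were found.

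Wild type 3 held 19 genes at 2 FPKM or more that were under 0.2 FPKM in the other 5 libraries, against 10 for mutant 1, 1 for mutant 2, 0 for mutant 3, 4 for wild type 1 and 1 for wild type 2. Those of wild type 3 include krt17, cyt1l and col10a1a. ctrb1, a digestive protease gene of the pancreas, was at 4.15, 0 and 1.27 FPKM in mutants and at 61.94, 32.03 and 1.55 FPKM in wild types.

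Other large differences without overlap were picked after their values were seen. irg1, whose enzyme makes itaconate in activated macrophages of mammals, was at 5.37, 6.28 and 0.92 FPKM in mutants, against 0.5, 0.38 and 0.44 FPKM in wild types. tdh, threonine dehydrogenase, was at 197.5, 283.9 and 110.7 FPKM in mutants, against 83.74, 67.22 and 49.47 FPKM in wild types. etv5b, a transcription factor gene downstream of Fgf signals, was at 12.16, 17.98 and 8.49 FPKM in mutants, against 4.37, 2.5 and 5.59 FPKM in wild types. g0s2, an inhibitor of lipolysis, was at 0.21, 0 and 0.34 FPKM in mutants, against 3.41, 7.39 and 2.31 FPKM in wild types. heg1, a membrane receptor needed for heart development, was at 10.64, 4.08 and 12.9 FPKM in mutants, against 30.62, 27.61 and 13.53 FPKM in wild types.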
